A study of Mus musculus with 12 samples.

Results

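The genes described here are 9 that mark neutrophils and activated myeloid cells: the receptors Cxcr2, Csf3r, Fpr1, Fpr2, Clec4d, Clec4e, Trem1 and Cd14, and Acod1, an enzyme of activated myeloid cells. They were chosen by name, as a list, with earlier results of these data known. A count of members beside the share of all genes is therefore a description and not a test of the list. Each gene is read by the row with the highest mean among the array rows that name that gene alone. Of the 9 genes, 8 have such a row, of 22180 genes in all, and each of the 8 has exactly 1. Fpr1 has none and was not analysed here.

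RNA of dorsal skin of C57Bl/6 mice was read on 12 expression arrays, in a study that asks whether psoriasis-like skin inflammation in mice carrying an IL-17C transgene is kept up when IL-6 is missing. The 6 groups are WT skin, skin of mice without IL-6 (IL-6KO), involved and uninvolved skin of the transgenic mice (IL-17C+), and involved and uninvolved skin of transgenic mice that also lack IL-6 (IL-17C+KO). Each group has n = 2 arrays, 1 of a pool from mice aged 10 weeks and 1 of a pool aged 14 weeks. Each pool mixes both sexes, with tissue of 4 mice in the 10-week control pools (WT and IL-6KO) and of 5 in the rest. Involved means lesional; WT and IL-6KO skin came from matching sites of the back, although a skin type label calls the IL-6KO pools involved. The promoter driving the transgene is not named in the labels, nor is it said whether involved and uninvolved pools share mice.

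Neutrophils leave the blood when CXC chemokines such as Cxcl1, Cxcl2 and Cxcl5 bind Cxcr2, and granulocyte colony-stimulating factor, encoded by Csf3, acts through Csf3r to drive their production and survival. Formyl peptide receptors (Fpr1, Fpr2) sense bacterial peptides and host alarm proteins. Clec4e (Mincle) and Clec4d are C-type lectins that bind microbial glycolipids and signal through the adaptor Fcer1g and the kinase Syk, Trem1 signals through the adaptor Tyrobp, and Cd14 hands lipopolysaccharide to Toll-like receptors. Acod1 makes itaconate, a metabolite of activated macrophages and neutrophils. Neutrophils gather in the upper layers of psoriatic skin.

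Promoter windows of 4 members are shown because these members passed the test in each of the 6 group comparisons in which any member did, and because their window ends directly before the gene. Each holds the 250 bases before the start site, written 5′ to 3′ along the gene's own strand, from the RefSeq promoter table of GRCm38.p6. Capitals mark matches, on either strand, to GAGGAA (the core read by PU.1), TTNNGNAA (C/EBP) or a loose NF-kB pattern (GGG, any 5 bases, CC).
Cxcr2, chr1:74153744-74153993, strand +: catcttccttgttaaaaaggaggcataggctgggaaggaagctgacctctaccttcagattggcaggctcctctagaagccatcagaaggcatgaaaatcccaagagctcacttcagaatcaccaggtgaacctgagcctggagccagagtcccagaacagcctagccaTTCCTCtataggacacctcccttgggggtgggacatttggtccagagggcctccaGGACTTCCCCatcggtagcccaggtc
Clec4d, chr6:123261857-123262106, strand +: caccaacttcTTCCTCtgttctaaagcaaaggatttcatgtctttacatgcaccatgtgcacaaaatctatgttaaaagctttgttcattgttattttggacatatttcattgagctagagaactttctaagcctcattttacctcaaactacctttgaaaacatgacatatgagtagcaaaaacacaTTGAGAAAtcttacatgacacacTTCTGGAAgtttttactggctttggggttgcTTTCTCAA
Clec4e, chr6:123289872-123290121, strand -: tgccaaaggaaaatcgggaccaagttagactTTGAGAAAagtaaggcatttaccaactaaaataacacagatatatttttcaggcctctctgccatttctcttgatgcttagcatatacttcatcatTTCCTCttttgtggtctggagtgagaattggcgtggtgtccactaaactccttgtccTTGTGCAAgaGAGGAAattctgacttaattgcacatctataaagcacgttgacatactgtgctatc
Acod1, chr14:103046762-103047011, strand +: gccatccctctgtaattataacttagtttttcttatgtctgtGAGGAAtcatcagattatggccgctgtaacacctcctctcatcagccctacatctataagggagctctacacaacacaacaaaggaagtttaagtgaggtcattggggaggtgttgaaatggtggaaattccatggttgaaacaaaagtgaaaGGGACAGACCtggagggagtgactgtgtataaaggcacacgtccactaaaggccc
Clec4d and Clec4e are neighbours on chromosome 6. In the Clec4d window the marked runs are 1 PU.1 core and 3 C/EBP matches, and in the Clec4e window 2 PU.1 cores and 2 C/EBP matches. The windows of Cxcr2 and Acod1 each hold 1 PU.1 core and 1 NF-kB match. None of the marked runs overlaps another in these 4 windows.

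The promoter table holds a window for 8 of the 9 members, Cd14 being the exception. GAGGAA stood in 7 of these 8 windows, all but that of Fpr1, and in 23.3% of all 32817 windows cut to the same 250 bases. TTNNGNAA stood in 5 of 8 (Clec4d, Clec4e, Fpr1, Fpr2 and Trem1) against 36.8% of all windows. The NF-kB pattern stood in 3 of 8 (Acod1, Csf3r and Cxcr2) against 45.8%. The STAT pattern TTCNNNGAA stood in 2 of 8 (Fpr2 and Trem1) against 7.01%. These are matches of letters and not measured binding sites.

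The values below are log2 intensities, with the 10-week pool first and the 14-week pool second. Each row reads its own gene on its own scale, so levels are set against each other only within a gene. The median of all rows lay between 3.97 and 4.23 on the 12 arrays. In bulk skin, fewer cells of a type and less RNA per cell cannot be told apart. Each difference is on the log2 scale, beside its moderated standard error from limma, and a gene passed where its p, adjusted by Benjamini-Hochberg over all 22180 genes, was under 0.05. The p-values here reflect how pools of the same group differ after an age difference shared by all groups is taken out. The 2 arrays of each group differ in age, so variation between pools and an age effect that differs between groups cannot be told apart. This spread is not how mice vary and may be partly technical. With n = 2 arrays per group, the precision of every value is limited.

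The labels were first checked on the targeted genes. For Il17c the WT pools read 4.67 and 4.96. Involved and uninvolved IL-17C+ pools read 5.81 with 6.63 and 4.74 with 4.16, and those of IL-17C+KO mice 5.32 with 5.62 and 6.16 with 6.25. IL-6KO skin, without the transgene, read 6.30 and 6.17. Il6 was at 2.92 and 2.88 (WT) and at 2.68 and 2.79 (IL-6KO), but 4.93 and 5.00 in the IL-17C+KO uninvolved pools, the highest values of the 12 arrays. Involved and uninvolved IL-17C+ pools read 4.23 with 3.21 and 3.28 with 3.02 for Il6, and the IL-17C+KO involved pools 3.14 and 4.64. Il17c was therefore not higher in every transgenic pool than in every pool without the transgene, and 3 of the 4 IL-17C+KO pools, labelled as lacking Il6, read above every pool labelled as having it. The sources used here do not say whether these rows read the transgene or the disrupted part of Il6. Every direction below rests on the labels as given.

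**Figure D1:**
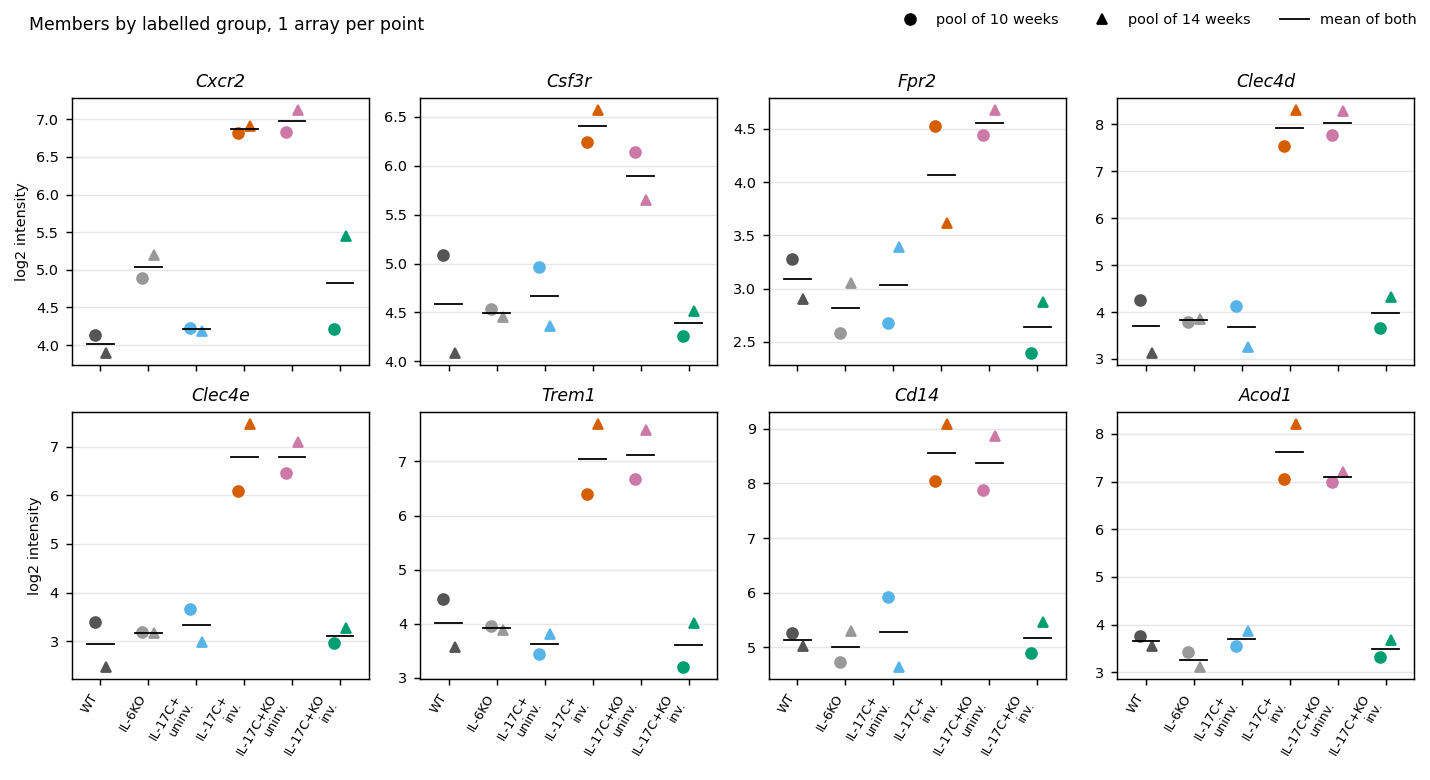
Log2 intensity of the 8 measured members by labelled group. Each point is 1 array (circles 10 weeks, triangles 14 weeks) and each line the mean of a group's 2 arrays. The 4 arrays of IL-17C+ involved and IL-17C+KO uninvolved skin lie above the other 8 in every panel, by 0.23 for Fpr2 and up to 3.20 for Clec4d.

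All 8 measured members were high on the same 4 arrays, those labelled IL-17C+ involved and IL-17C+KO uninvolved, and low on the other 8. The array groups did not overlap for any member. This split was read from the same values, and the share of all genes that separate these arrays was not counted. The gap between the lowest of the 4 and the highest of the 8 was 3.20 for Clec4d, 3.14 for Acod1, 2.42 for Clec4e, 1.95 for both Trem1 and Cd14, 1.37 for Cxcr2, 0.56 for Csf3r and 0.23 for Fpr2. The skin labelled IL-17C+KO involved was thus among the low groups. The pools of the 2 high groups overlapped for 7 members, so these groups have no order there. The exception was Csf3r, for which both IL-17C+ involved pools lay above both IL-17C+KO uninvolved pools.

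Cxcr2, the chemokine receptor that draws neutrophils into tissue, was high at 6.82 and 6.91 in involved IL-17C+ pools and at 6.83 and 7.12 in uninvolved IL-17C+KO pools. It read 4.13 and 3.90 (WT), 4.23 and 4.19 (uninvolved IL-17C+), 4.88 and 5.20 (IL-6KO), and 4.21 and 5.45 (involved IL-17C+KO). Among the low groups, both IL-6KO pools lay above the WT and IL-17C+ uninvolved pools, and the IL-17C+KO involved pools spanned the IL-6KO pools. Csf3r, the receptor for granulocyte colony-stimulating factor, was high at 6.24 and 6.57 in involved IL-17C+ pools and at 6.14 and 5.66 in uninvolved IL-17C+KO pools. Its other pools read 5.09 and 4.09 (WT), 4.54 and 4.45 (IL-6KO), 4.97 and 4.36 (uninvolved IL-17C+), and 4.26 and 4.52 (involved IL-17C+KO). The WT pools of Csf3r spanned every pool of the other 3 low groups, so these groups have no order.

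Fpr2, the formyl peptide receptor with a row, was near or below the array median in most pools. It was high at 4.53 and 3.62 in involved IL-17C+ pools and at 4.44 and 4.68 in uninvolved IL-17C+KO pools. It read 3.28 and 2.90 (WT), 2.58 and 3.06 (IL-6KO), 2.68 and 3.39 (uninvolved IL-17C+), and 2.40 and 2.88 (involved IL-17C+KO). None of these 8 low values was above the median of its array, and 3 of the 4 high ones were.

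Both lectin receptors were well separated between the array groups. Clec4d was high at 7.53 and 8.30 in involved IL-17C+ pools and at 7.76 and 8.28 in uninvolved IL-17C+KO pools, against 4.26 and 3.13 (WT), 3.80 and 3.85 (IL-6KO), 4.13 and 3.24 (uninvolved IL-17C+), and 3.66 and 4.32 (involved IL-17C+KO). Clec4e was high at 6.09 and 7.46 in involved IL-17C+ pools and at 6.46 and 7.10 in uninvolved IL-17C+KO pools, against 3.40 and 2.47 (WT), 3.18 and 3.17 (IL-6KO), 3.67 and 2.99 (uninvolved IL-17C+), and 2.96 and 3.26 (involved IL-17C+KO). For both lectins the WT pools spanned the IL-6KO pools, so the low groups have no clear order. None of the 8 low Clec4e values was above the median of its array, against 3 of the 8 for Clec4d.

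Trem1, which amplifies myeloid responses, was high at 6.40 and 7.69 in involved IL-17C+ pools and at 6.67 and 7.58 in uninvolved IL-17C+KO pools, against 4.45 and 3.57 (WT), 3.96 and 3.89 (IL-6KO), 3.45 and 3.81 (uninvolved IL-17C+), and 3.20 and 4.02 (involved IL-17C+KO). Cd14, the co-receptor for lipopolysaccharide, was high at 8.04 and 9.08 in involved IL-17C+ pools and at 7.88 and 8.86 in uninvolved IL-17C+KO pools, against 5.26 and 5.02 (WT), 4.73 and 5.29 (IL-6KO), 5.92 and 4.64 (uninvolved IL-17C+), and 4.89 and 5.46 (involved IL-17C+KO). All 8 low Cd14 values were above the median of their array, as were all 8 of Csf3r and 6 of the 8 of Cxcr2. That median is taken over all rows, so lying above it does not by itself show that a gene was detected. Acod1, the itaconate enzyme, was high at 7.05 and 8.20 in involved IL-17C+ pools and at 7.0 and 7.21 in uninvolved IL-17C+KO pools, against 3.76 and 3.55 (WT), 3.42 and 3.11 (IL-6KO), 3.55 and 3.86 (uninvolved IL-17C+), and 3.32 and 3.67 (involved IL-17C+KO). None of the 8 low Acod1 values was above the median of its array, and all 4 high ones were.

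The lesional skin of transgenic mice was compared with WT skin to see what the transgene goes with where skin is involved. The chemokine receptor, the colony-stimulating factor receptor, both lectins, Trem1, Cd14 and Acod1 were higher, which is 7 of 8 members. Of all genes 1.1% were higher and 1.8% passed in either direction. The members' median difference was 3.23, against 0.01 over all genes. Clec4d was 18.6-fold higher (4.22 ± 0.42, adjusted p = 0.00045), Acod1 15.7-fold (3.97 ± 0.31, adjusted p = 7.87e-05) and Clec4e 14.3-fold (3.84 ± 0.43, adjusted p = 0.000858). Cd14 was 10.7-fold higher (3.42 ± 0.45, adjusted p = 0.00224), Trem1 8.2-fold (3.04 ± 0.41, adjusted p = 0.00256) and Cxcr2 7.21-fold (2.85 ± 0.31, adjusted p = 0.000743). Csf3r was 3.52-fold higher (1.82 ± 0.31, adjusted p = 0.0117). Fpr2 differed by 0.98 ± 0.33 and did not pass (adjusted p = 0.205). The call of Csf3r was lost without the 14-week IL-17C+ involved pool (1.46, adjusted p = 0.156) and without the 14-week WT pool (1.37, adjusted p = 0.106). All 8 differences were positive at both ages. Fpr2 passed where only the 4 arrays of these groups were fitted (adjusted p = 0.0303).

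Skeletal muscle RNA moved with this comparison. Of 20 muscle markers, 18 were lower in IL-17C+ involved than in WT skin, and their mean level was 7.77 and 7.51 against 9.60 and 10.42. With that mean as a covariate none of the 8 members passed (Acod1 3.69 ± 0.67, Cd14 3.27 ± 0.95, Clec4e 3.30 ± 0.90, Clec4d 3.17 ± 0.83, Trem1 2.15 ± 0.82, Cxcr2 1.70 ± 0.56, Csf3r 0.68 ± 0.57 and Fpr2 0.19 ± 0.66). The differences were smaller and the standard errors larger there than without the covariate. Over the 12 arrays the Pearson correlation of a member with the muscle mean ran from -0.87 for Cxcr2 to -0.60 for Fpr2. The IL-6KO pool of 14 weeks had a muscle mean of 8.24, and the 14-week IL-17C+KO uninvolved pool one of 8.74. Their members' means (each member centred on its own mean over the 12 arrays) were -0.91 and 2.15. These are single pools, and the part of muscle was not tested.

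**Figure D2:**
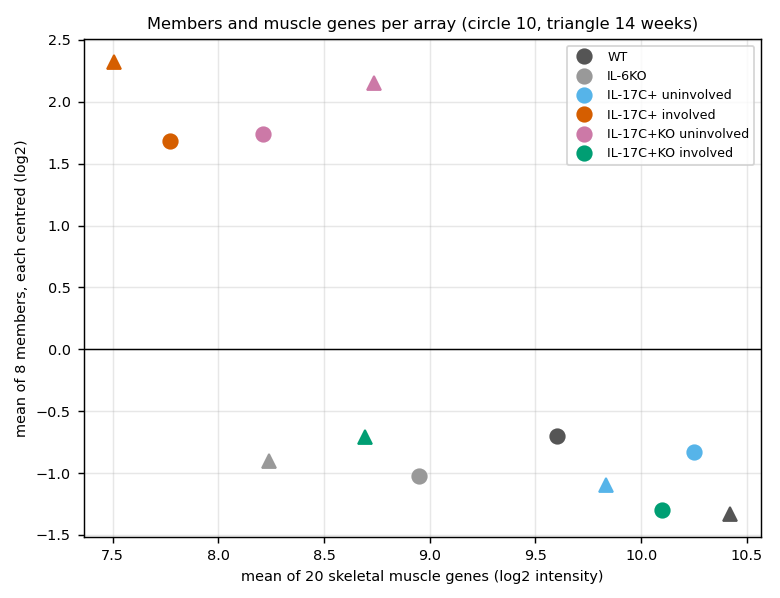
Mean of the 8 measured members (each centred on its own mean, log2) against the mean log2 intensity of 20 skeletal muscle genes, 1 point per array (circles 10 weeks, triangles 14 weeks). The 4 arrays with a members' mean from 1.68 to 2.32 have muscle means from 7.51 to 8.74. The other 8 arrays, with a members' mean from -1.33 to -0.70, have muscle means from 8.24 (the IL-6KO pool of 14 weeks) to 10.42.

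Against uninvolved IL-17C+ skin, involved IL-17C+ skin had higher Cxcr2 (2.66), Csf3r (1.74), Clec4d (4.22), Clec4e (3.44), Trem1 (3.42), Cd14 (3.28) and Acod1 (3.92), again 7 of 8 members, with 0.775% of all genes higher and 1.61% passing in either direction. Fpr2 differed by 1.04 ± 0.33 (adjusted p = 0.174) in limma, with 1.85 at 10 weeks and 0.23 at 14 weeks. Csf3r was lost without the 14-week involved pool (1.39, adjusted p = 0.228) or the 14-week uninvolved pool (1.54, adjusted p = 0.091), and Cd14 without the 14-week involved pool (2.82, adjusted p = 0.0706). The uninvolved pools also held more muscle RNA (10.25 and 9.83), with 16 of 20 muscle markers lower in involved skin. With the muscle covariate 0 of 8 members passed in limma, at smaller differences and larger standard errors. Acod1 was at 3.63 ± 0.67, Clec4d at 3.16 ± 0.84, Cd14 at 3.12 ± 0.96 and Clec4e at 2.90 ± 0.90. Trem1 was at 2.52 ± 0.83, Cxcr2 at 1.49 ± 0.57, Csf3r at 0.59 ± 0.58 and Fpr2 at 0.23 ± 0.66. Between uninvolved transgenic skin and WT skin no member passed in limma (0 of 8, against 0.0541% of all genes, and 0 at an unadjusted p under 0.05). Its differences from WT ran from -0.38 for Trem1 to 0.39 for Clec4e, with intervals (95%) of -1.26 to 0.50 and -0.53 to 1.32. These 3 comparisons share pools, so they are not separate evidence of one another.

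Loss of IL-6 without the transgene was read by setting IL-6KO against WT skin. None of 8 members passed in limma, against 0.455% of all genes, and 1 had an unadjusted p under 0.05. That member was Cxcr2, at 4.88 and 5.20 in IL-6KO against 4.13 and 3.90 in WT skin, a difference of 1.03 ± 0.31 with an interval of 0.36 to 1.70 (adjusted p = 0.26). With the muscle mean as a covariate Cxcr2 differed by 0.34 ± 0.40 in limma (adjusted p = 0.999). The 4 pools do not overlap for Cxcr2, and the share of all genes without overlap was not counted. The other 7 members ran from -0.39 for Acod1 (interval -1.06 to 0.28) to 0.24 for Clec4e (interval -0.69 to 1.16). IL-6KO skin also differed in other tissue markers, with 3 of 7 fibroblast and 2 of 20 muscle markers lower than in WT skin. At an unadjusted p under 0.05 there were 5 fibroblast and 16 muscle markers. The median differences of these lists were -0.94 and -1.22.

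In transgenic mice without IL-6 the members followed the labelled sites in the opposite order. The involved skin of IL-17C+KO mice lay below their uninvolved skin for 7 of 8 members, with 0.478% of all genes lower and 0.505% passing in either direction. Clec4d was 16.3-fold lower (-4.03 ± 0.42, adjusted p = 0.000826), Clec4e 12.7-fold (-3.67 ± 0.43, adjusted p = 0.00166), Acod1 12.2-fold (-3.61 ± 0.31, adjusted p = 0.000213) and Trem1 11.4-fold (-3.51 ± 0.41, adjusted p = 0.00157). Cd14 was 9.14-fold lower (-3.19 ± 0.45, adjusted p = 0.00837), Cxcr2 4.43-fold (-2.15 ± 0.31, adjusted p = 0.01) and Fpr2 3.79-fold (-1.92 ± 0.33, adjusted p = 0.0237). Csf3r differed by -1.51 ± 0.31 and did not pass (adjusted p = 0.0601). None of 20 muscle markers passed here in limma (11 at an unadjusted p under 0.05), and their mean was 10.10 and 8.69 in involved against 8.21 and 8.74 in uninvolved skin. With the muscle covariate 4 of 8 members passed, namely Clec4d, Clec4e, Trem1 and Acod1. Of 7 fibroblast markers all differences were negative here, with a median of -0.92. Of these 1 was called lower (5 at an unadjusted p under 0.05), and their part was not tested. The count of members fell to 4 without the 10-week IL-17C+KO involved pool and to 2 without the 14-week IL-17C+KO uninvolved pool.

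**Figure D3:**
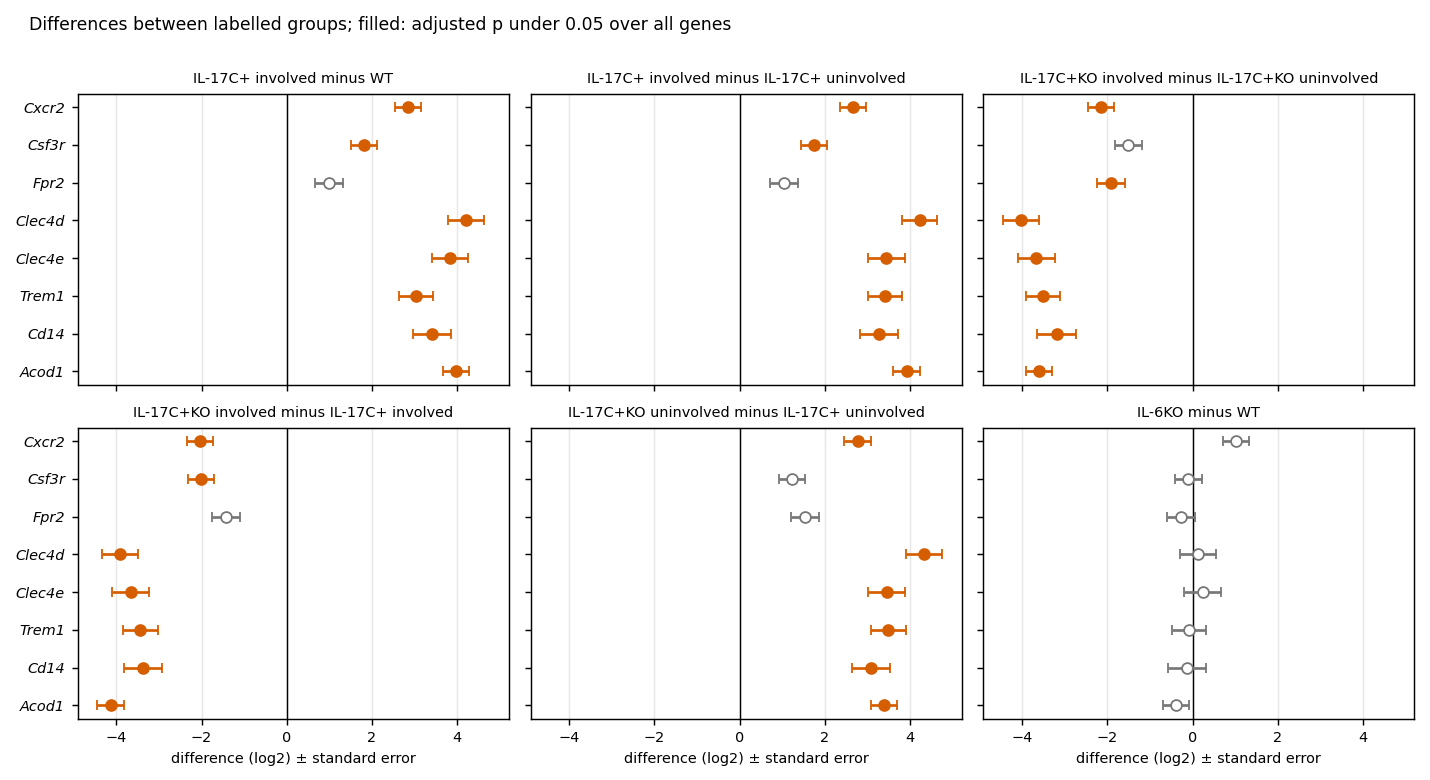
Differences (log2 ± standard error of limma) for the 8 measured members in 6 group comparisons. Filled points passed at an adjusted p under 0.05 over all genes. Members lie to the right of 0 for IL-17C+ involved skin against WT and to the left for IL-17C+KO involved skin against either high group.

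The uninvolved skin of IL-17C+KO mice was higher than IL-6KO skin for 7 of 8 members, with 0.392% of all genes higher and 0.397% passing in either direction. The differences were 4.19 for Clec4d (adjusted p = 0.000517), 3.84 for Acod1 (adjusted p = 0.000121), 3.61 for Clec4e, 3.36 for Cd14, 3.20 for Trem1, 1.94 for Cxcr2 (adjusted p = 0.0169) and 1.74 for Fpr2 (adjusted p = 0.0446). Csf3r, at 1.40 ± 0.31, did not pass (adjusted p = 0.0905). The muscle means of these pools were 8.21 and 8.74 against 8.95 and 8.24, and with the muscle covariate 7 of 8 members passed as well (Acod1 3.82 ± 0.32, Cd14 3.35 ± 0.46 and Cxcr2 1.88 ± 0.27). Of 7 fibroblast markers all differences were positive, with a median of 1.44, against -0.01 over all genes, and 1 was called higher (6 at an unadjusted p under 0.05). The lower of the fibroblast means was 10.76 in IL-17C+KO uninvolved skin, against 9.59 and 9.59 in IL-6KO skin, and their part was not tested. The number of members that passed was 4 without the 10-week IL-6KO pool, 3 without the 14-week IL-6KO pool, 2 without the 14-week IL-17C+KO uninvolved pool, and 4 when the 10-week WT and IL-6KO pools were both left out. Fpr2 was also lost without an intensity trend (adjusted p = 0.0718), when all rows of a gene were averaged (adjusted p = 0.052), after the filter on dim genes (adjusted p = 0.0538) and after renewed quantile normalization (adjusted p = 0.0544). Between involved skin of IL-17C+KO mice and IL-6KO skin no member passed in limma (0 of 8, against 0.171% of all genes, and 0 at an unadjusted p under 0.05). Those differences ran from -0.32 for Trem1, with an interval of -1.19 to 0.56, to 0.23 for Acod1, with an interval of -0.44 to 0.90.

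Transgenic skin with and without IL-6 was then compared at the same labelled site. In involved skin 7 of 8 members were lower without IL-6, with 0.419% of all genes lower and 0.649% passing in either direction. Acod1 was 17.6-fold lower (-4.14 ± 0.31, adjusted p = 0.000172), Clec4d 15.2-fold, Clec4e 12.7-fold, Trem1 10.8-fold, Cd14 10.4-fold, Cxcr2 4.09-fold and Csf3r 4.05-fold (-2.02 ± 0.31, adjusted p = 0.0113). Fpr2 differed by -1.43 ± 0.33 (adjusted p = 0.0768), with -2.13 at 10 weeks and -0.74 at 14 weeks. Without the 10-week IL-17C+KO involved pool 4 members passed. With the muscle covariate none did in limma, at smaller differences and larger standard errors. Acod1 was at -3.92 ± 0.54 (adjusted p of 0.0706), Cd14 at -3.27 ± 0.77, Clec4e at -3.27 ± 0.72 and Clec4d at -3.15 ± 0.67. Trem1 was at -2.78 ± 0.66, Cxcr2 at -1.18 ± 0.45, Csf3r at -1.17 ± 0.46 and Fpr2 at -0.85 ± 0.53. In uninvolved skin 6 of 8 were higher without IL-6, with 0.541% of all genes higher and 0.712% passing in either direction. These were Clec4d (4.33 ± 0.42, adjusted p = 0.000245), Trem1 (3.49), Clec4e (3.45), Acod1 (3.40), Cd14 (3.09) and Cxcr2 (2.77). Fpr2 (1.53 ± 0.33, adjusted p = 0.0624) and Csf3r (1.23 ± 0.31, adjusted p = 0.134) did not pass. Cd14 was lost without the 14-week IL-17C+KO uninvolved pool (2.66, adjusted p = 0.119). With the muscle covariate 0 of 8 members passed in limma (Clec4d 3.64 ± 0.63, Acod1 3.20 ± 0.50 with an adjusted p of 0.0627, Clec4e 3.09 ± 0.67, Cd14 2.99 ± 0.72 and Cxcr2 2.01 ± 0.42).

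The difference between the sites was itself tested against the presence of IL-6. All 8 members passed, each lower, with 1.43% of all genes lower and 2.58% passing in either direction. The change of the site difference was -8.25 ± 0.60 for Clec4d (adjusted p = 1.12e-05), -7.53 ± 0.44 for Acod1 (adjusted p = 2.74e-06), -7.11 ± 0.61 for Clec4e, -6.93 ± 0.57 for Trem1, -6.47 ± 0.63 for Cd14, -4.80 ± 0.44 for Cxcr2, -3.25 ± 0.44 for Csf3r and -2.96 ± 0.46 for Fpr2 (adjusted p = 0.00442). All 8 passed with any 1 array left out. With the muscle covariate Acod1 passed (-7.13 ± 0.93, adjusted p = 0.0216) and the other 7 members did not. Their values there were -6.78 ± 1.17 for Clec4d, -6.36 ± 1.26 for Clec4e, -6.26 ± 1.34 for Cd14, -5.69 ± 1.15 for Trem1, -3.19 ± 0.79 for Cxcr2, -1.85 ± 0.92 for Fpr2 and -1.66 ± 0.80 for Csf3r. Of the 20 muscle markers 18 passed in this interaction, all in the positive direction. The labelled site of IL-17C+KO skin and the measured levels thus run opposite to those of IL-17C+ skin, and a difference of tissue taken, of genotype or of labels cannot be told apart here.

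**Figure D4:**
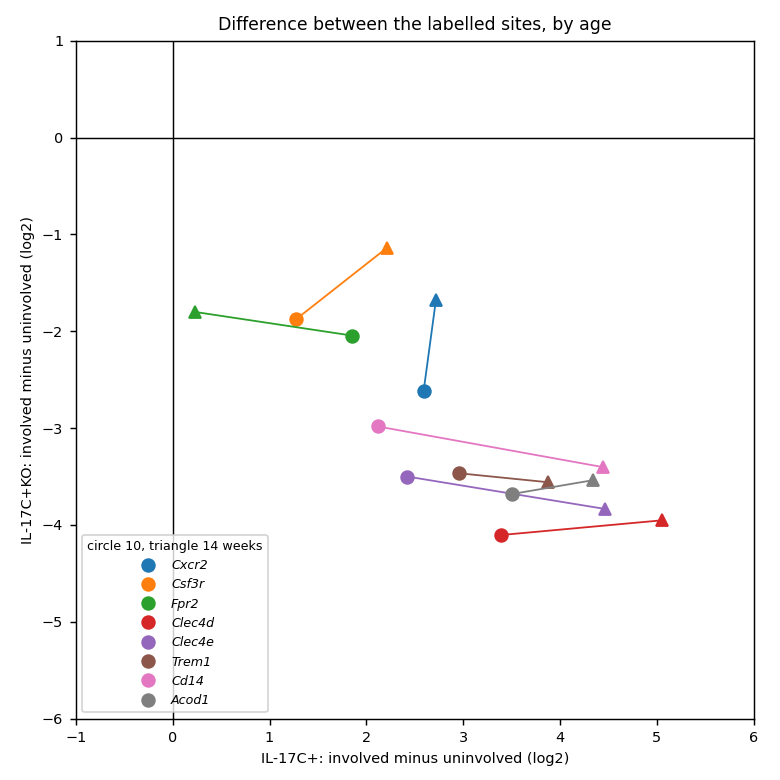
Involved minus uninvolved (log2) for each member in IL-17C+ skin (horizontal) and in IL-17C+KO skin (vertical), at 10 weeks (circles) and 14 weeks (triangles), with 1 pool on each side of a difference. All points lie right of 0 and below 0, from 0.23 for Fpr2 at 14 weeks to 5.06 for Clec4d at 14 weeks on the horizontal axis.

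The difference between involved transgenic skin and its control without the transgene was likewise tested against the presence of IL-6. This difference holds both the transgene and the lesion, and it rests on the labels as given. By those labels it was lower without IL-6 for 6 of 8 members, with 0.834% of all genes lower and 1.31% passing in either direction. The values were -4.05 ± 0.60 for Clec4d, -3.90 ± 0.61 for Clec4e, -3.75 ± 0.44 for Acod1 (adjusted p = 0.00219), -3.35 ± 0.57 for Trem1, -3.25 ± 0.63 for Cd14 and -3.06 ± 0.44 for Cxcr2. Csf3r (-1.92 ± 0.44, adjusted p = 0.0563) and Fpr2 (-1.17 ± 0.46, adjusted p = 0.382) did not pass. The count was 3 without the 14-week WT pool. It was 0 in limma with the muscle covariate, at smaller values and larger standard errors. Acod1 was at -3.36 ± 0.90, Clec4e at -3.18 ± 1.21, Cd14 at -3.05 ± 1.29 and Clec4d at -2.65 ± 1.13. Trem1 was at -2.16 ± 1.11, Cxcr2 at -1.52 ± 0.76, Csf3r at -0.40 ± 0.77 and Fpr2 at -0.10 ± 0.89.

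Between the 2 ages no member passed in limma (0 of 8, against 0% of all genes). At an unadjusted p under 0.05 there were 1856 genes and 0 members. Differences of 14 minus 10 weeks ran from -0.27 for Csf3r to 0.40 for Trem1. Within the 2 high groups, the 14-week pools were above the 10-week pools by 1.0 for Clec4e, 1.10 for Trem1, 1.02 for Cd14, 0.68 for Acod1, 0.65 for Clec4d and 0.19 for Cxcr2 on average, and below them by 0.08 for Csf3r and 0.34 for Fpr2. Each such value rests on 1 pool per age and group.

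**Figure D5:**
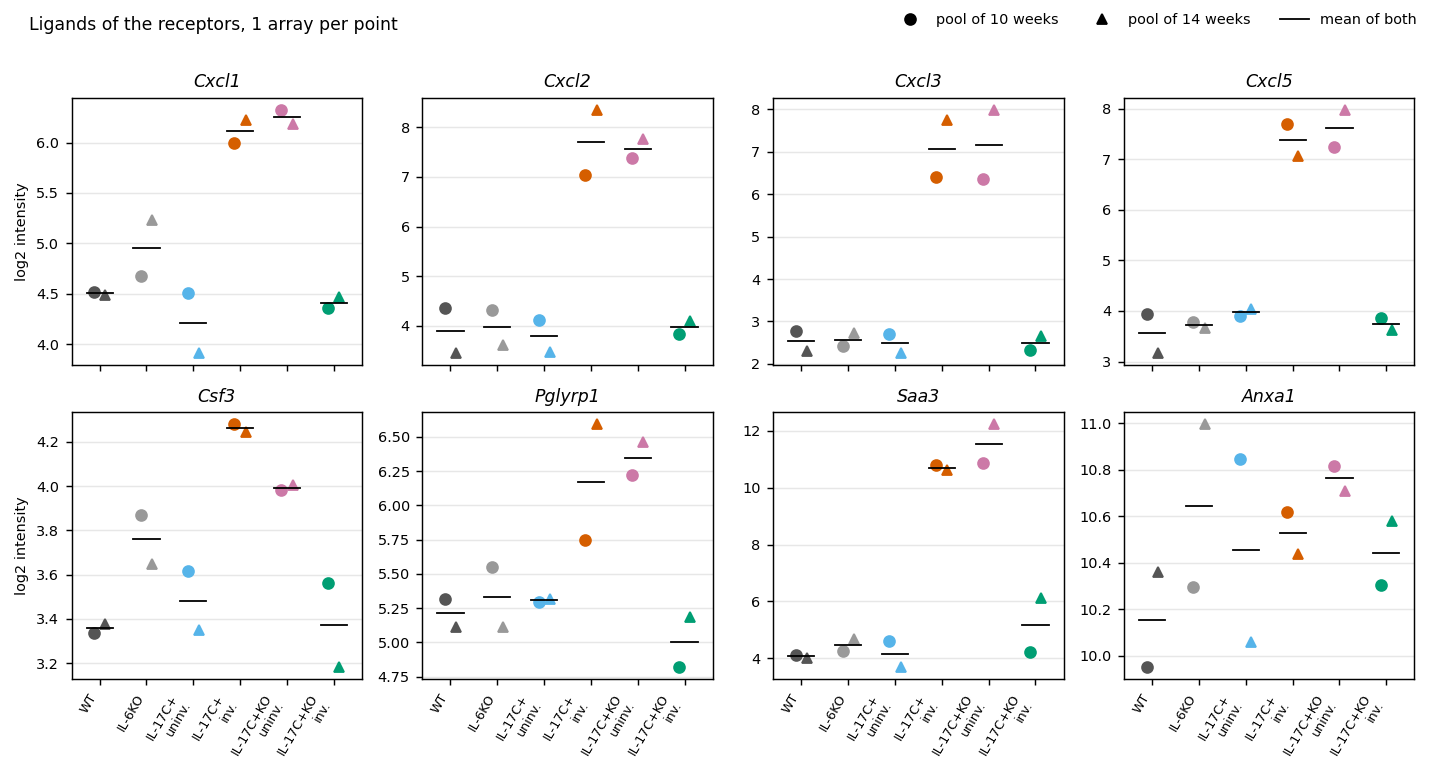
Log2 intensity of 8 of the 14 measured ligands of the receptors by labelled group, 1 point per array (circles 10 weeks, triangles 14 weeks, lines the mean of both). The other measured ligands, Ppbp among them, are not shown. Saa3, Cxcl1, Cxcl2, Cxcl3 and Cxcl5 are high on the same 4 arrays as the members, and Anxa1 is not. Csf3 and Pglyrp1 separate these arrays more narrowly. The lowest of the 4 is 3.98 for Csf3 and 5.75 for Pglyrp1, and the highest of the others 3.87 and 5.55.

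Ligands of the receptors were measured by 14 genes, and 6 were higher in IL-17C+ involved than in WT skin, with 1.1% of all genes higher. Saa3, an acute-phase protein of the serum amyloid A family, whose members can act on Fpr2, read 10.79 and 10.62 against 4.13 and 4.00 (6.64 ± 0.51, adjusted p = 7.87e-05). The Cxcr2 ligands Cxcl3 (4.54 ± 0.44), Cxcl5 (3.82 ± 0.32) and Cxcl2 (3.78 ± 0.43) came next, followed by Cxcl1 (1.61 ± 0.27). Ppbp, a further chemokine on the ligand list, was not among the 6. It read 3.78 and 3.07 in involved IL-17C+ pools against 3.54 and 2.97 in WT pools. Csf3, the ligand of Csf3r, was dim and higher by 0.90 ± 0.20 (adjusted p = 0.0435). Pglyrp1, a ligand of Trem1 (0.95 ± 0.29, adjusted p = 0.145), and Saa2 (0.90 ± 0.65, adjusted p = 0.673) did not pass. The list's median was 0.90, against 0.01 over all genes. In IL-17C+KO mice 5 of the 14 were lower in involved than in uninvolved skin, with Saa3 at 4.22 and 6.11 against 10.87 and 12.22 (-6.38 ± 0.51, adjusted p = 0.000175) and Cxcl3 at -4.68 ± 0.44. The difference between sites changed with IL-6 for 7 of 14, all lower, led by Saa3 (-12.94 ± 0.72), Cxcl3 (-9.27 ± 0.62) and Cxcl2 (-7.49 ± 0.61). Of all genes 0.478% were lower in the former comparison and 1.43% in the latter.

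Relatives and co-receptors of the members were measured by 25 genes. Of these, 4 were higher in IL-17C+ involved than in WT skin, with 1.1% of all genes higher: Clec7a (Dectin-1, 1.67 ± 0.28), Csf2rb2 (1.44 ± 0.30), the lectin Clec4n (Dectin-2, 1.38 ± 0.25) and the chemokine receptor Cxcr4 (1.34 ± 0.27). Trem3 (1.27 ± 0.30, adjusted p = 0.0556) did not pass. Cxcr1, a further receptor for chemokines of this kind, stayed between 3.31 and 4.20 on all 12 arrays. In the test of the site difference, 5 of 25 were lower, with 1.43% of all genes lower, namely Clec4n (-4.38 ± 0.35), Clec7a (-2.91 ± 0.40), Trem3 (-2.57 ± 0.43), Tlr2 (-2.29 ± 0.35) and Cxcr4 (-2.16 ± 0.39).

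Of 16 adaptors and kinases downstream of these receptors, 0 passed in IL-17C+ involved against WT skin in limma, against 1.8% of all genes. At an unadjusted p under 0.05 there were 6, and all 16 differences were positive, with a median of 0.48. The largest were Myd88 (0.80 ± 0.32, adjusted p = 0.325) and Tyrobp (0.77 ± 0.32, adjusted p = 0.355). In IL-17C+KO mice 1 of 16 was lower in involved skin, the kinase Syk (-1.27 ± 0.24, adjusted p = 0.0377). The site difference changed with IL-6 for 3 of 16, namely Tyrobp (-2.19 ± 0.45), Syk (-1.97 ± 0.34) and Fcer1g (-1.70 ± 0.38). Of all genes 0.478% were lower in the former comparison and 1.43% in the latter.

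Products of activated myeloid cells were higher in IL-17C+ involved than in WT skin for 9 of 17 genes, with 1.1% of all genes higher. Il1b, the inflammatory cytokine, read 10.40 and 11.08 against 4.85 and 4.87 (5.88 ± 0.46, adjusted p = 7.87e-05). Slc7a11, the cystine transporter (4.20 ± 0.53), the chemokine Ccl3 (4.15 ± 0.61) and Lcn2, an iron-binding antimicrobial protein (3.08 ± 0.45), were also among the 9. Osm (1.30 ± 0.31, adjusted p = 0.0595) did not pass. In IL-17C+KO mice 8 of 17 were lower in involved than in uninvolved skin, with Il1b at -4.96 ± 0.46, and the site difference changed for 12 of 17, all lower. Of all genes 0.478% were lower in the former comparison and 1.43% in the latter.

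Of 20 neutrophil markers measured, 7 were higher in IL-17C+ involved than in WT skin: S100a8 (6.39 ± 0.72), S100a9 (6.14 ± 0.75), Stfa2l1 (5.37 ± 0.53), Retnlg (5.08 ± 0.46), Hdc, Mmp8 and Mmp9. Of all genes 1.1% were higher there. Of the 20 differences 17 were positive, with a median of 1.19, against 0.01 over all genes. At an unadjusted p under 0.05 there were 15. S100a8 and S100a9 are made by stressed keratinocytes too and are counted in that list as well. Retnlg, a resistin-like secreted protein of neutrophils, was high at 7.64 and 8.93 in involved IL-17C+ pools and at 8.44 and 9.24 in uninvolved IL-17C+KO pools, and read from 2.58 to 4.56 on the other 8 arrays. The primary granule genes Mpo and Elane, of immature neutrophils, were not above 3.80 on any of the 12 arrays. Prtn3, a further gene of this kind on the list, read from 3.87 to 4.87. It was at 4.56 and 4.87 in involved IL-17C+ pools and at 4.14 and 4.29 in uninvolved IL-17C+KO pools. In IL-17C+KO mice 6 of 20 markers were lower in involved than in uninvolved skin, and the site difference changed for 13 of 20, all lower. Of all genes 0.478% were lower in the former comparison and 1.43% in the latter.

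Markers of other cells were set beside these results, and their part in them was not tested. Macrophage and monocyte markers had 0 of 11 called in each of the 12 comparisons by limma (at most 5 at an unadjusted p under 0.05, in IL-6KO against WT skin), with means between 6.08 and 7.18. Markers of T cells had 0 of 8 called in limma (at most 3 unadjusted). Those of eosinophils and basophils had 0 of 6 (at most 1 unadjusted), with none above an array median. In IL-17C+ involved against WT skin 1.1% of all genes were higher and 1.8% passed in either direction. In that comparison, 3 of 8 mast cell markers were higher (Mcpt4, Tpsb2 and Fcer1a) and 3 of 9 dendritic and Langerhans cell markers were lower (H2-Ab1, H2-Eb1 and H2-Aa). Stressed keratinocyte markers were higher for 7 of 8 there, with means of 10.11 and 10.21 in involved IL-17C+ pools, of 9.86 and 9.89 in uninvolved IL-17C+KO pools, and from 4.95 to 8.34 on the other 8 arrays. The stress keratinocyte list thus separated the same 4 arrays. Fibroblast means were 9.59 and 9.59 (IL-6KO) and 9.87 and 9.90 (involved IL-17C+KO), and from 10.40 to 11.23 on the other 8 arrays, with 1 of 7 markers lower in involved skin of IL-17C+KO than of IL-17C+ mice.

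The members were alike across the 12 arrays, which share the separation described above. The Pearson correlation of each member with the mean of the other members ran from 0.847 for Fpr2 to 0.994 for Clec4d. Likeness was ranked over genes outside the list, leaving out predicted loci (Gm numbers, Rik and LOC names) and Mir, Olfr, Vmn, Snor and n-R names. Among the genes kept, those most like the members' mean were Cxcl3 (0.992), Cxcl2 (0.991), Tnn (0.991), Mmp8 (0.987), Retnlg (0.986), Il1b (0.985), Hdc (0.984) and Mcemp1 (0.983). Over the 8 arrays of the 4 low groups the same correlations were 0.88 for Cxcl3, 0.64 for Cxcl2, 0.58 for Tnn, 0.68 for Mmp8, 0.66 for Retnlg, 0.59 for Il1b, 0.67 for Hdc and 0.0019 for Mcemp1. By single member, the most alike gene was Stfa2l1 for Cxcr2 (0.98), Prss35 for Csf3r (0.971), Runx1 for Fpr2 (0.926), Cxcl2 for Clec4d (0.992) and Clec4e (0.993), Mmp8 for Trem1 (0.989), Adam8 for Cd14 (0.99) and Mcemp1 for Acod1 (0.991). These correlations describe 12 arrays of 6 groups and rest on few distinct levels.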

How the data were processed

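The 12 arrays of pooled dorsal skin were deposited as 1 table of intensities on a linear scale (2.50 to 18385), made with RMA in Affymetrix Expression Console, per the submitters' processing notes. The sources used here give no versions or probe filters. The design assumed log2 values, so log2 was taken here first. Of 41345 rows, 23521 name 1 gene, 1814 several and 16010 none, by the platform annotation supplied. Rows naming 1 gene were used, and the highest mean row stood for each of 22180 genes (1082 have several rows).

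Tests were run in R 4.3.3 with limma 3.58.1 (group plus age over all 12 arrays, eBayes with an intensity trend, 5 residual and 7.65 prior degrees of freedom), adjusted by Benjamini-Hochberg over all genes, after a check on simulated data. Age, at 10 or 14 weeks, is the replicate number of the labels and was kept as a block. Residuals of same-age arrays correlated between -0.21 and 0.52 over 15 pairs, with a median of 0.07. The members and lists were chosen with earlier results of these data known. From each list up to 4 genes that passed and up to 2 that did not were eligible to be named, by size of the difference, besides those given to complete a small count or as a reading of a level. Alternatives were no block, no trend, a filter keeping 14363 genes above the array median on at least 2 arrays, renewed quantile normalization, the mean of a gene's rows, fits of the compared groups alone, a skeletal muscle covariate and each array left out. Those without the 10-week WT and IL-6KO pools, without all IL-17C+KO pools and without all IL-6KO pools were added after seeing the data. Promoter sequences are those of RefSeq for GRCm38.p6, matched by symbol.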

Additional observations from a re-analysis of the deposited data

Results flagged for a closer look

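The difference between involved and uninvolved skin was not the same with and without IL-6 for any measured member, by the interaction test of limma. The change of that difference was -4.80 for Cxcr2, -3.25 for Csf3r, -2.96 for Fpr2, -8.25 for Clec4d, -7.11 for Clec4e, -6.93 for Trem1, -6.47 for Cd14 and -7.53 for Acod1 on the log2 scale. Each of the 8 was positive at both ages in IL-17C+ skin and negative at both ages in IL-17C+KO skin.

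The difference between transgenic involved skin and its control without the transgene also changed with IL-6, by the same kind of test, for 6 members. It changed by -3.06 for Cxcr2, -4.05 for Clec4d, -3.90 for Clec4e, -3.35 for Trem1, -3.25 for Cd14 and -3.75 for Acod1. No group has 4 arrays, so no single array was tested for standing apart from its group.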

How the results depend on the processing

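With the skeletal muscle mean as a covariate, the members that passed fell to 0 for IL-17C+ involved against WT, 0 against IL-17C+ uninvolved, 0 for IL-17C+KO involved against IL-17C+ involved, 0 for IL-17C+KO against IL-17C+ uninvolved, 4 for the sites of IL-17C+KO skin, 1 for the site by IL-6 interaction and 0 for the transgene by IL-6 interaction; all member differences named in these comparisons kept their direction. For IL-17C+KO uninvolved against IL-6KO it was 7, as without the covariate. Leaving out the 10-week WT and IL-6KO pools together left 4 of 8 for IL-17C+KO uninvolved against IL-6KO. Without 1 array at a time the counts ran from 6 to 7 (IL-17C+ involved against WT), 5 to 7 (against IL-17C+ uninvolved), 2 to 7 (IL-17C+KO uninvolved against IL-6KO), 2 to 8 (sites of IL-17C+KO skin), 4 to 7 (IL-17C+KO against IL-17C+ involved), 5 to 7 (the same, uninvolved), 8 to 8 (site interaction) and 3 to 7 (transgene interaction), and stayed 0 elsewhere. A group left with 1 array is assumed to vary like the others.

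Directions turned only for small differences that did not pass: Clec4e, IL-17C+ uninvolved minus WT, was -0.08 without the 10-week IL-17C+ uninvolved pool and -0.23 without the 14-week WT pool (range without 1 array -0.23 to 1.02). Trem1 in the same comparison was 0.39 without the 10-week WT pool (range -1.15 to 0.39) and 0.48 without both 10-week control pools, and 0.14 without these in IL-17C+KO involved minus IL-6KO. Acod1 was -0.11 there without the 14-week IL-6KO pool (range -0.11 to 0.56). The cause was not tested beyond the arrays left out.

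With no replicate block the number of members that passed was the same in all 11 comparisons tested (7 in 5 of them, 6 in 2, 8 in 1 and 0 in 3), while genes that passed fell from 101 to 26 for IL-6KO against WT, from 38 to 14 for IL-17C+KO involved against IL-6KO, from 12 to 7 for IL-17C+ uninvolved against WT and from 290 to 181 for the transgene interaction. For 25 ligands and other listed genes in 7 comparisons, 3364 of 3700 alternative values kept their call and direction, 245 lost it, 91 gained it and 0 turned.

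With n = 2 pools per group, some differences of Fpr2 and Csf3r lay near the threshold, and Fpr2 was dim on most arrays.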
